A study of Homo sapiens with 6 samples.

Results

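The 100 genes described here encode the machinery of mitosis together with the wider kinesin and NEK families, and were chosen by gene symbol out of 14884 genes named on the array. They are the kinesins, the centromere proteins CENPA to CENPX, the NEK, Aurora and Polo kinases, the spindle checkpoint, the mitotic cyclins with CDK1 and the CDC25 phosphatases, the CDCA genes, condensin and single genes such as FOXM1, PRC1 and TOP2A. The cells were MDA-MB-231, a triple-negative breast cancer line of human origin, and they were transfected with siRNA against ATM (siATM, 2 arrays), siRNA against p53 (sip53, 2 arrays) or control siRNA (siNC, 2 arrays), all delivered with a lipid reagent. ATM signals breaks of both DNA strands, and among its targets is the transcription factor p53, which this line carries in mutant form. Nothing in the labels ties the samples of a group to separate cultures. The p-values therefore cover the spread between these samples alone, and that spread may be technical.

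In background, cells entering mitosis switch on a shared set of genes late in the cell cycle. Cyclin B with CDK1 starts mitosis, condensin compacts the chromosomes, kinetochores built on the centromere attach them to microtubules, the spindle checkpoint delays anaphase until every chromosome is attached, and kinesins move chromosomes and slide microtubules. Many of these genes carry in their promoter a cell cycle genes homology region (CHR), which is bound by MuvB complexes, repressive with p130 in resting cells and activating with B-MYB and FOXM1 in dividing cells. Other kinesins carry organelles and vesicles along microtubules, and several NEK kinases act at cilia and centrosomes. These are not tied to mitosis in the same way.

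Each value is a log2 expression level of 1 probe set. Array medians were between 5.95 and 5.98. Arrays of the same group differed with an SD of 0.148 for siATM, 0.115 for sip53 and 0.124 for siNC across the 10640 genes tested. Of 9 genes expected to be high in this line, all lay above the brightness limit, with VIM at a mean log2 value of 11.62, 11.63 and 11.62 in siATM, sip53 and siNC cells. Of the luminal or epithelial genes expected to be low, ESR1, PGR, ESRP1 and GRHL2 lay under the limit in their mean over the arrays. EPCAM, CLDN3, CLDN4, CLDN7, KRT19, ERBB3 and GATA3 did not. Of 11 haematopoietic markers listed 3 were tested, and of these CD14 and LYZ were higher and 0 lower after siATM. Their summed level, on the linear scale, was 5218 to 5290 in siATM cells, 3814 to 3905 in sip53 cells and 4204 to 4516 in siNC cells. The summed level of 7 luminal or epithelial genes was 4662 to 4880 in siATM cells, 3748 to 3874 in sip53 cells and 3797 to 3895 in siNC cells, and that of 4 endothelial and fibroblast genes was 531 to 542 in siATM cells, 556 to 588 in sip53 cells and 453 to 483 in siNC cells. Of these genes 3 of 7 and 2 of 4 were higher after siATM, and 0 and 1 lower. The part of such markers in the results below was not tested. The transcripts of both targeted genes are not analysed here.

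After siATM 12 of 13 mitotic kinesins, 12 of 16 centromere proteins and 6 of 6 checkpoint genes were lower than in control cells, as was 1 of 23 kinesins of transport and other functions. Of the 100 genes, 95 reached a mean log2 value of 5.964, which is the median over every probe set, and were tested. Of these, 59 were lower and 3 higher after siATM (limma, adjusted p below 0.05), while 33 were not called. Over all tested genes 13.0% were called lower and 12.5% higher. The 59 falls ranged from 1.21-fold to 2.15-fold with a median of 1.46-fold, and in all 59 both siATM arrays lay below both siNC arrays. Such separation downwards was found in 30.8% of all tested genes and in 70 of the 95 members. The median log2 difference between siATM and siNC was −0.41 over the tested members and −0.00 over all tested genes. In bulk RNA, fewer cells in late cell cycle phases and less of these transcripts per cell cannot be told apart.

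The family split by role. Of 13 kinesins with a known part in mitosis or at the centriole, 12 were lower after siATM, 0 were higher, and the median log2 difference was −0.53. Of 23 tested kinesins of transport and other functions, 1 was lower, 0 were higher, and the median was −0.02. The 1 that fell, KIF2A, is a microtubule depolymerase that also acts at spindle poles and is no transport motor, and the other 22 were not called. The kinesins of this list were also dimmer, with a median level of 7.4 against 10.1 for the mitotic kinesins on the log2 scale, and summarised array values compress differences of dim probe sets. Among kinesins above 7.221, the 70th percentile of brightness, 12 of 13 mitotic kinesins and 1 of 14 of the others, again KIF2A, were lower. Outside these other kinesins and the NEK kinases, 56 of 64 members were lower and 0 higher.

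**Figure D1:**
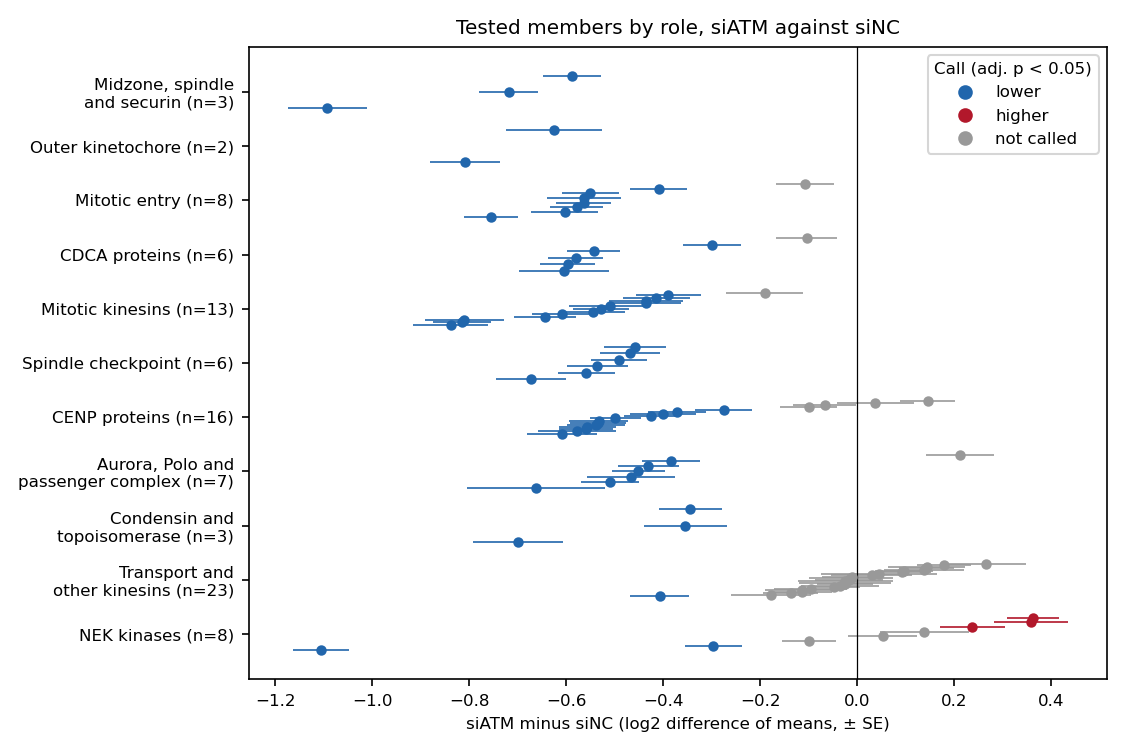
Difference of the mean log2 values between siATM and siNC for each of the 95 tested members, grouped by role (points, with bars of ± 1 SE, coloured by call). The kinesins of transport and other functions lie around 0 with a median of −0.02, the mitotic kinesins at a median of −0.53, and the NEK kinases spread to both sides.

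Promoter sequences were examined because members that fell together could share motifs. The choice by symbol did not use sequence, but it favours mitotic genes, many of which carry the CHR. The RefSeq promoter table holds windows from 250 bases before to 50 after a gene start for 84 of the 100 members, in build GRCh38.p14. The CHR was searched as TTTGAA and the CCAAT box, the site of the factor NF-Y, as CCAAT, on both strands, and matches to both motifs can share at most 1 base. The windows of 3 members that fell with both motifs or with the largest difference, of CDC20, the activator of the anaphase-promoting complex that the spindle checkpoint inhibits, and of the transport kinesin KIF5B are shown with matches to either motif in capitals.
NEK2 (chr1:211675572-211675871, minus strand): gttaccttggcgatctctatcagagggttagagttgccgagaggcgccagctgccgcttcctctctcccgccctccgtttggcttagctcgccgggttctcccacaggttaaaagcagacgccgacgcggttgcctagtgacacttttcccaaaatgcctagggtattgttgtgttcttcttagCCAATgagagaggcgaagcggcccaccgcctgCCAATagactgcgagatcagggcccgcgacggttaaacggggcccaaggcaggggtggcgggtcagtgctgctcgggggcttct
KIF4A (chrX:70289854-70290153, plus strand): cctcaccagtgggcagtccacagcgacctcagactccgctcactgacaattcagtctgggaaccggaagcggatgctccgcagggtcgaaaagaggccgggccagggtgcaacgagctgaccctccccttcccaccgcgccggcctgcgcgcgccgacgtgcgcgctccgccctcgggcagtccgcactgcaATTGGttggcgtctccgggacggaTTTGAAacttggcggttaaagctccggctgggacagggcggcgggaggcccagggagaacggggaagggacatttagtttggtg
PRC1 (chr15:90994486-90994785, minus strand): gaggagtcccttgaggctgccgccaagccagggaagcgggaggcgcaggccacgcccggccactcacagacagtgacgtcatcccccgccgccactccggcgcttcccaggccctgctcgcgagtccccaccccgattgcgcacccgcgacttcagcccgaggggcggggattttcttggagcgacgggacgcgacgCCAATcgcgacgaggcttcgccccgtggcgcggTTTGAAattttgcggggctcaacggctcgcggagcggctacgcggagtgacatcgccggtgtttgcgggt
CDC20 (chr1:43358731-43359030, plus strand): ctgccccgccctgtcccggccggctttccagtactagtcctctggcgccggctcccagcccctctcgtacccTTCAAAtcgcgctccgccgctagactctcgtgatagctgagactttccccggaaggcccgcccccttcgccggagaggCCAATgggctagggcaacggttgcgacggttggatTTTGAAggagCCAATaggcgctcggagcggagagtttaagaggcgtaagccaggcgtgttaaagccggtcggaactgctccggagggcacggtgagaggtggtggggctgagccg
KIF5B (chr10:32056376-32056675, minus strand): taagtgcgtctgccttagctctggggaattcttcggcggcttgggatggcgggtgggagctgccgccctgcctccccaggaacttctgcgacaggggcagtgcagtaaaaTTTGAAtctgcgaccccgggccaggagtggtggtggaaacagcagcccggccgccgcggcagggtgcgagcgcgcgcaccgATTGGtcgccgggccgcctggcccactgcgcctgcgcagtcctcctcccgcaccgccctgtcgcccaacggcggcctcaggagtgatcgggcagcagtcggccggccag
The KIF4A window holds the CHR from base −34 and a CCAAT box on the other strand from −58, and PRC1 holds them from −20 and −53, counted from the gene start. CDC20 holds 2 of each. NEK2, the member with the largest fall, has 2 CCAAT boxes and no match to the CHR letters. KIF5B, which was not called after siATM, was the only kinesin of its list in the table with a CHR match, which starts at −140.

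Of 50 members lower after siATM with a promoter in the table, 29 (58%) held a CHR match in at least 1 window, against 3 of 30 (10%) tested members that were not lower. Among tested genes that are no members the shares were 18.6% of 1064 lower genes and 12.1% of 7079 genes not lower, and 18.2% among all 27305 genes of the promoter set. A CCAAT box was present in 76% of the members that fell, in 36.7% of the tested members that did not fall and in 39.7% of all genes. Both motifs together occurred in 46%, 10% and 8.37% of these sets. E2F sites, searched as TTTCCCGC, TTTGGCGC, TTTCGCGC and TTTGCCGC on both strands and able to share at most 1 base with a CCAAT box and none with the CHR, occurred in 14%, 3.33% and 3.99%. Among tested genes that are no members, lower and not lower, the shares were 45.6% and 41.1% for the CCAAT box, 10.6% and 6.26% for both motifs, and 10.2% and 5.59% for E2F sites. By role, 9 of 13 mitotic kinesins, 1 of 20 kinesins of transport and other functions and 0 of 9 NEK kinases held a CHR match. Of the 36 tested members that were not lower, 22 are kinesins of transport and other functions. Role and call therefore cannot be told apart in the shares of members. The number of windows per gene was 1.28 for members that fell and 1.5 for the others, and the GC content of the windows was 61% and 67.9%, so base composition differed between the sets. A match describes letters in a window, and no test was made of these shares.

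Regulators of mitotic entry fell together after siATM. Of 8 tested genes, 7 were lower and 0 higher. CDC25C, a phosphatase that activates CDK1, had log2 values of 7.87 and 7.82 in siATM cells, 8.62 and 8.64 in sip53 cells, and 8.58 and 8.62 in siNC cells. Both siATM arrays were below all others, a 1.69-fold fall against siNC (log2 difference −0.76, SE 0.06, adjusted p = 0.000338). FOXM1, the transcription factor that drives late cell cycle genes, had 9.92 and 9.91 in siATM cells, 10.59 and 10.67 in sip53 cells, and 10.49 and 10.47 in siNC cells. It fell 1.48-fold (−0.56, SE 0.06, adjusted p = 0.00099). The cyclin genes CCNB2 (−0.60), CCNA2 (−0.58) and CCNB1 (−0.41), their partner kinase gene CDK1 (−0.56) and the phosphatase gene CDC25A (−0.55) also fell, with log2 differences as given in brackets here and below. CDC25B, the third phosphatase of the family, was at 10.64 and 10.69 in siATM cells and 10.73 and 10.82 in siNC cells and was not called (−0.11, 95% interval −0.25 to 0.03).

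Among the mitotic kinesins the largest fall was in KIF4B and KIF4A, near-identical genes whose probe sets may share signal. Both are included in the counts given here, although they may not be separate measurements. KIF4A, a chromokinesin that works with PRC1 at the spindle midzone, had 9.52 and 9.56 in siATM cells, 10.27 and 10.35 in sip53 cells, and 10.33 and 10.38 in siNC cells. Its siATM arrays stood apart from the 4 others, and it fell 1.76-fold against siNC (−0.82, SE 0.06, adjusted p = 0.000334). KIF14, a kinesin of cytokinesis, was at 9.21 and 9.02 in siATM cells, 9.70 and 9.57 in sip53 cells, and 9.94 and 9.91 in siNC cells, so the sip53 arrays lay between the other groups. It fell 1.75-fold after siATM (−0.81, SE 0.08, adjusted p = 0.000945), and its sip53 difference of −0.29 did not pass (adjusted p = 0.0655). KIF2C, which takes microtubules apart at kinetochores, fell 1.56-fold. KIF23, a subunit of centralspindlin (−0.61), KIF15 (−0.55), KIF20A (−0.53) and KIF11, the motor that separates spindle poles (−0.51), also fell. KIF18A was the 1 member of this list not called (−0.19, 95% interval −0.38 to −0.01, adjusted p = 0.12).

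Among the kinesins of transport and other functions, KIF2A had log2 values of 10.09 and 10.02 in siATM cells, 10.60 and 10.52 in sip53 cells, and 10.48 and 10.44 in siNC cells. Its siATM arrays were below all others, and it fell (−0.41, SE 0.06, adjusted p = 0.00365). KIF5B, the heavy chain of conventional kinesin and among the brightest members, was at 11.94 and 11.88 in siATM cells and 12.03 and 12.07 in siNC cells and was not called (adjusted p = 0.122). For KIF3C, a subunit of a neuronal transport kinesin, the 95% interval of the difference was −0.18 to 0.08. KIF27 was not called at a log2 difference of 0.27 (adjusted p = 0.0504). Its other 2 probe sets lay far under the brightness limit and were not used. KIF1B was not called at 0.18 (adjusted p = 0.0547), and its second probe set differed by 0.01. KIF9 and KIF25 lay just above the brightness limit, at mean log2 values of 6.12 and 6.21, and were not called. KIF5A, KIF5C and KIF6 lay under it, at 5.60, 5.04 and 4.44.

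**Figure D2:**
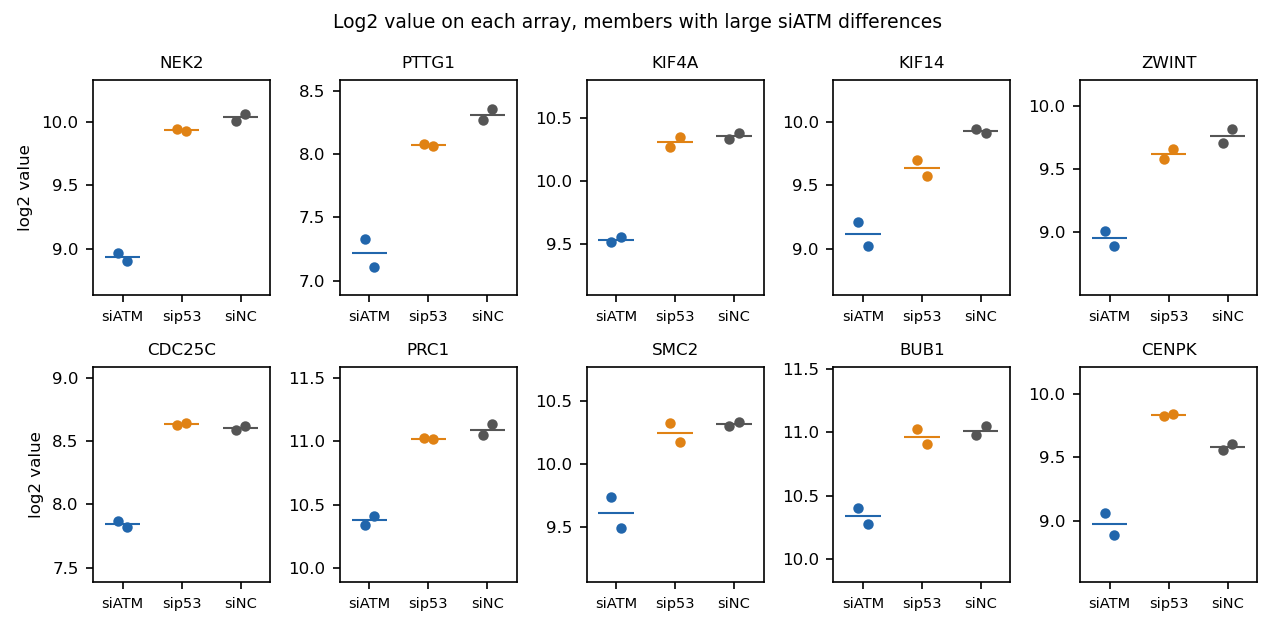
Log2 value on each array (points) and group mean (lines) for 10 members with large differences between siATM and siNC, in siATM, sip53 and siNC cells. Each panel spans the same 1.7 log2 units, and both siATM points lie below the other 4 points in every panel.

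Centromere proteins fell after siATM in 12 of 16 cases, with 0 higher and a median log2 difference of −0.46. CENPK, of the inner kinetochore, had 9.06 and 8.88 in siATM cells, 9.83 and 9.84 in sip53 cells, and 9.56 and 9.60 in siNC cells. The siATM arrays were lowest and the sip53 arrays highest, and the fall against siNC was 1.52-fold (−0.61, SE 0.07, adjusted p = 0.00158). CENPH, CENPI and CENPM, which form a complex with CENPK, fell as well (−0.40, −0.56 and −0.37). The complex of CENPO, CENPP, CENPQ and CENPU fell in these 4 subunits (−0.56, −0.28, −0.50 and −0.58), and its further subunit gene ITGB3BP, which encodes CENP-R, was not called (−0.12, adjusted p = 0.222). CENPP lost its call in 1 of 6 fits with 1 array left out (adjusted p up to 0.086). CENPL (−0.54) and its partner CENPN (−0.42) both fell. In the histone-fold group CENPW fell (−0.54), whereas its direct partner CENPT (−0.10, 95% interval −0.24 to 0.04) and CENPX (0.04, −0.15 to 0.22) were not called. CENPC, which binds centromeric nucleosomes, was not called either (−0.07, −0.22 to 0.09), nor was CENPV (0.15, 0.01 to 0.28, adjusted p = 0.105).

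CENPA, the histone H3 variant that marks the centromere, fell after siATM (−0.53). At the outer kinetochore both named genes fell. ZWINT, which links the kinetochore scaffold KNL1 to the checkpoint, had 9.01 and 8.89 in siATM cells, 9.58 and 9.66 in sip53 cells, and 9.71 and 9.82 in siNC cells. That was a 1.75-fold fall (−0.81, SE 0.07, adjusted p = 0.00065) with no overlap between siATM and the other groups. NDC80, the microtubule-binding subunit, fell too (−0.63). All 6 checkpoint genes fell. BUB1, a checkpoint kinase, had 10.40 and 10.28 in siATM cells, 11.02 and 10.91 in sip53 cells, and 10.98 and 11.05 in siNC cells (−0.67, SE 0.07, adjusted p = 0.00113). The kinase gene TTK (−0.56), BUB1B (−0.54), CDC20 (−0.49), BUB3 (−0.47) and MAD2L1 (−0.46) followed.

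Of 7 Aurora, Polo and passenger complex genes, 6 were lower and 0 higher after siATM. The 3 passenger complex genes among the members, CDCA8 (borealin), BIRC5 (survivin) and the kinase gene AURKB, fell (−0.51, −0.43 and −0.38). PLK1, a kinase needed from mitotic entry to cytokinesis, was at 11.94 and 11.91 in siATM cells, 12.33 and 12.36 in sip53 cells, and 12.38 and 12.37 in siNC cells. PLK1 was the brightest member, and it fell 1.37-fold (−0.45, SE 0.05, adjusted p = 0.00167). AURKA, the spindle pole kinase, fell as well (−0.47). PLK4, the kinase that starts centriole duplication, had 9.34 and 8.86 in siATM cells, 9.38 and 9.22 in sip53 cells, and 9.77 and 9.76 in siNC cells. Its siATM arrays differed from each other by more than those of any other tested member and overlapped with sip53, and the fall (−0.66, SE 0.14, adjusted p = 0.0145) lost its call in 2 of 6 fits with 1 array left out (adjusted p up to 0.0687). AURKC, the germline Aurora kinase, was dim and not called (0.21, adjusted p = 0.0652). Against sip53, 3 of these 7 genes were lower with siATM and AURKC was higher.

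PTTG1 and PRC1 had large falls outside these lists. PTTG1, the securin that holds separase inactive until anaphase, had 7.33 and 7.11 in siATM cells, 8.08 and 8.06 in sip53 cells, and 8.27 and 8.36 in siNC cells (2.13-fold lower, −1.09, SE 0.08, adjusted p = 0.000347). The groups did not overlap. PRC1, the microtubule crosslinker of the midzone, had 10.34 and 10.41 in siATM cells, 11.03 and 11.02 in sip53 cells, and 11.05 and 11.13 in siNC cells (−0.72, SE 0.06, adjusted p = 0.000598). HMMR, a spindle-associated hyaluronan receptor, fell (−0.59). So did SMC2 (−0.70) and SMC4 (−0.35) of the condensin core and the topoisomerase gene TOP2A (−0.34). SMC4 lost its call in 3 of 6 fits with 1 array left out (adjusted p up to 0.112) and TOP2A in 1 (adjusted p up to 0.0518). CDCA genes were lower in 5 of 6 cases, led by CDCA7, a chromatin factor (−0.61), CDCA5, the cohesin protector sororin (−0.60), CDCA2 (−0.58) and CDCA3 (−0.54).

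The NEK kinases moved in both directions after siATM. Of 8 tested, 2 were lower, 3 higher and 3 not called, beside 13.0% lower and 12.5% higher of all tested genes. NEK2, which separates centrosomes at mitotic entry, had 8.96 and 8.90 in siATM cells, 9.95 and 9.93 in sip53 cells, and 10.01 and 10.06 in siNC cells. The fall against siNC was 2.15-fold (−1.11, SE 0.06, adjusted p = 0.000122), and 2.01-fold against sip53 (SE 0.06 on the log2 scale, adjusted p = 0.000146). NEK9, the kinase that activates NEK6 and NEK7, fell (−0.30, SE 0.06, adjusted p = 0.0109). NEK7, which is also known for its part in the NLRP3 inflammasome, rose: it had 10.81 and 10.79 in siATM cells, 10.46 and 10.44 in sip53 cells, and 10.45 and 10.43 in siNC cells (1.29-fold, 0.36, SE 0.05, adjusted p = 0.00369). The siATM arrays were above all others. NEK11, a kinase of the DNA damage response, had 7.15 and 7.01 in siATM cells, 6.89 and 6.81 in sip53 cells, and 6.66 and 6.78 in siNC cells, and it rose (0.36, SE 0.08, adjusted p = 0.014). NEK6 rose as well (0.24, SE 0.07, adjusted p = 0.0391). NEK6 lost its call in 5 of 6 fits with 1 array left out (adjusted p up to 0.179), and NEK9 and NEK11 in 2 each (up to 0.066 and 0.086), while NEK2 and NEK7 kept theirs in all 6.

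NEK5 lay just under the brightness limit with a mean of 5.93 and was left out of the main test. Its log2 values were 6.33 and 6.72 in siATM cells, 5.68 and 5.88 in sip53 cells, and 5.52 and 5.44 in siNC cells. In the fit without a filter over 14884 genes it was 2.06-fold higher in siATM than in siNC cells (1.04, SE 0.14, adjusted p = 0.0099). NEK10, at a mean of 5.71, differed by 0.05 in that fit (adjusted p = 0.766).

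**Figure D3:**
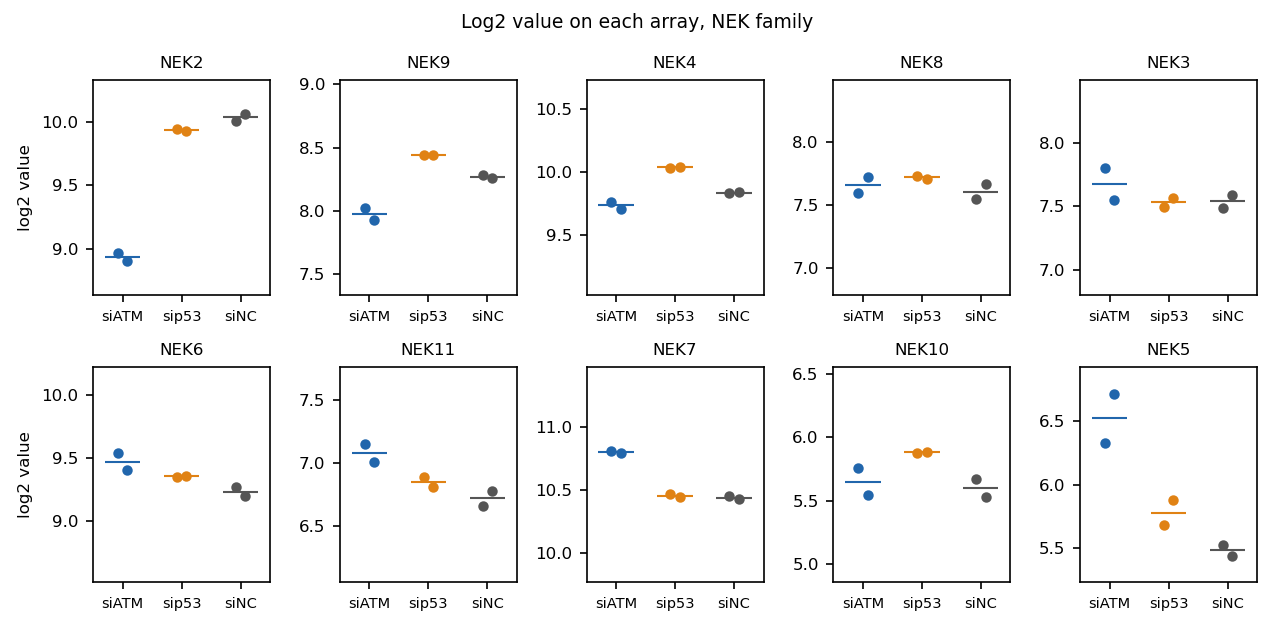
Log2 value on each array (points) and group mean (lines) for the 10 NEK genes, in siATM, sip53 and siNC cells, with the same span of 1.7 log2 units in each panel. NEK2 is lowest with siATM, NEK7 and NEK5 are highest with siATM, and NEK10 and NEK5 lie under the brightness limit in their mean.

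Few genes were called after sip53, among the members as among all tested genes. Of 95 tested members, 7 (7.37%) were lower and 1 (1.05%) higher than in siNC cells, beside 5.11% and 5.47% of all tested genes. With arrays centred on their median, 668 genes were lower and 410 higher in place of 544 and 582. The member median was −0.01 on the log2 scale. The 7 lower genes were CENPN (−0.55), KIF11 (−0.38), CENPA (−0.38), BUB3 (−0.36), KIF5B (−0.32), KIF13A (−0.31), a motor of endosome transport, and CDC25B (−0.29), and KIF27 was higher (0.43). CENPN, which reads the CENP-A nucleosome, had 9.50 and 9.55 in sip53 cells and 10.07 and 10.09 in siNC cells, a 1.46-fold difference (SE 0.06, adjusted p = 0.00253). KIF11 had 10.65 and 10.56 in sip53 cells and 11.01 and 10.97 in siNC cells. KIF13A was at 9.26 and 9.24 in sip53 cells and 9.61 and 9.52 in siNC cells. KIF27 was at 7.57 and 7.61 in sip53 cells and 7.08 and 7.26 in siNC cells. The sip53 and siNC arrays did not overlap in any of these 4 genes. Of all 10640 tested genes, 2746 were likewise apart downwards and 3518 upwards. CENPN alone among the 8 kept its call in all 6 fits with 1 array left out. The other 7, KIF11, CDC25B, KIF13A, KIF27, KIF5B, BUB3 and CENPA, lost theirs in 3 or 4 of the 6 fits. Every such loss came in a fit without a sip53 or siNC array. Fits without a siATM array leave the sip53 difference itself unchanged. Without sip53 replicate 1, sip53 replicate 2, siNC replicate 1 or siNC replicate 2 the count of lower members was 1 each time.

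**Figure D4:**
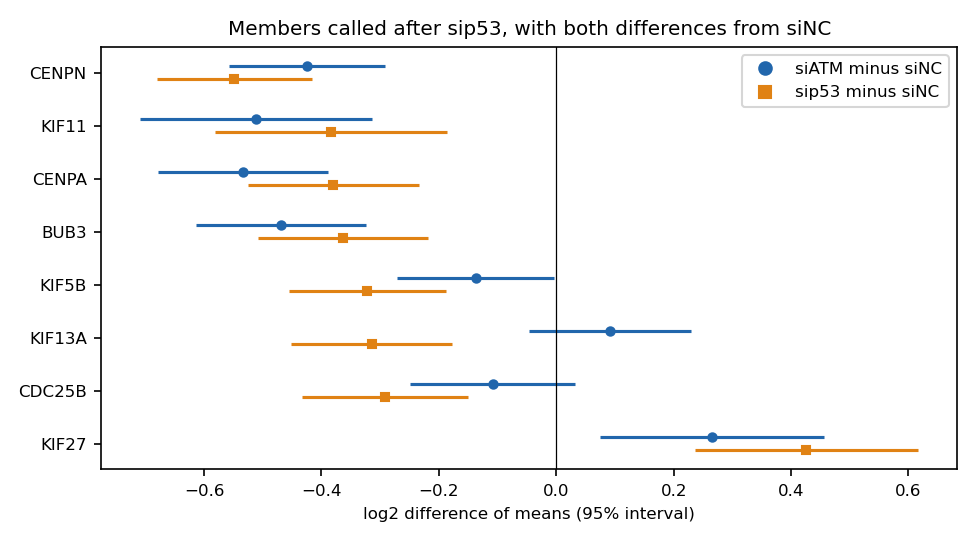
Log2 difference from siNC after siATM (circles) and after sip53 (squares) with 95% intervals, for the 8 members called after sip53. Both differences use the same siNC arrays. For CENPN, KIF11, CENPA, BUB3 and KIF5B both intervals lie below 0 and for KIF27 both lie above 0, while KIF13A and CDC25B lie below 0 after sip53 with a siATM interval that crosses 0.

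The direct comparison of siATM with sip53, whose differences do not use the siNC means, tests whether the effects of both siRNAs differ. Of 95 members, 55 were lower and 5 higher with siATM than with sip53, beside 16.3% and 14.0% of all tested genes, and the median log2 difference was −0.38. Of the 59 members lower after siATM against siNC, 52 were also lower against sip53. Both comparisons use the same 2 siATM arrays, so these calls are not independent. The matching share among all genes lower after siATM was not computed. The 7 others of the 59 were not called against sip53. Of these, 3 were AURKA (−0.26, adjusted p = 0.0652), BIRC5 (−0.20, adjusted p = 0.0511) and PLK4 (−0.20, adjusted p = 0.325). The other 4 are the members lower with both siRNAs. CENPN was at 9.67 and 9.63 in siATM cells and 9.50 and 9.55 in sip53 cells (0.12, 95% interval −0.01 to 0.26), and the 95% intervals were −0.30 to −0.01 for CENPA, −0.32 to 0.07 for KIF11 and −0.25 to 0.04 for BUB3. Higher with siATM than with sip53 were KIF13A (0.41), NEK7 (0.35), KIF1B (0.29), AURKC (0.24) and KIF5B (0.18). KIF13A and NEK7 kept this call in all 6 fits with 1 array left out, while KIF5B lost it in all 6 and AURKC in 5 (adjusted p up to 0.207 and 0.176). KIF1B lost it in 1 of these fits, and also with the mean of all probe sets (adjusted p = 0.231). The second KIF1B probe set was at 6.32 and 6.33 in siATM cells and 6.42 and 6.39 in sip53 cells, which is the other direction.

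Some members lay on opposite sides of siNC with the siRNAs against ATM and p53. FOXM1 was 0.15 above siNC after sip53 (adjusted p = 0.148) and CENPK 0.25 above (adjusted p = 0.0693), neither called, and both were lower with siATM than with sip53, by 1.64-fold (−0.71, SE 0.06, adjusted p = 0.000362) and 1.82-fold (−0.86, SE 0.07, adjusted p = 0.000385). CDCA7 was at 7.62 and 7.77 in siATM cells and 8.41 and 8.59 in sip53 cells, 1.76-fold lower with siATM (adjusted p = 0.000963). In siNC cells CDCA7 was at 8.21 and 8.38, and its sip53 difference from siNC was not called (0.21, adjusted p = 0.208). KIF18A, NEK4 and KIF3A were lower with siATM than with sip53 (−0.30, −0.30 and −0.32) without a call against siNC. The calls of KIF18A and KIF3A were each lost in 3 of 6 fits with 1 array left out (adjusted p up to 0.133 and 0.142).

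Mitotic genes outside the symbol rule were counted from lists written by role. After siATM, 9 of 12 further centromere and kinetochore genes, 12 of 13 spindle and cytokinesis genes, and 13 of 18 entry kinases and regulators were lower. SKA1, of the complex that couples kinetochores to microtubules, had 9.25 and 9.06 in siATM cells and 10.10 and 10.12 in siNC cells (1.95-fold lower, adjusted p = 0.000445). SGO2, which protects centromeric cohesion (−0.75), and MIS18A, of the complex that licenses CENP-A loading (−0.66), also fell. So did HJURP, the CENP-A chaperone (−0.59), and INCENP, the scaffold of the passenger complex (−0.52). SPAG5 (−0.73), TROAP (−0.72) and CKAP2L (−0.71) led the spindle list, and the kinase genes PBK (−0.92) and MELK (−0.59) and the repressor gene E2F8 (−0.62) led the regulators. RBL2, which encodes the p130 protein of the repressive MuvB complex, was the 1 regulator that rose (0.26, SE 0.06, adjusted p = 0.0213). Its relative RBL1, which encodes p107, fell (−0.51). Of the MuvB core, LIN52 (−0.50) and LIN9 (−0.34) fell, while LIN54, RBBP4 and LIN37 were not called (adjusted p = 0.110, 0.124 and 0.978). MYBL2, the gene of B-MYB, was not called after siATM either (−0.11, adjusted p = 0.245), and it was higher after sip53 than with siNC (0.26, adjusted p = 0.038). For these genes outside the rule, calls in fits with 1 array left out are not reported here.

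Calls were fewer in the anaphase-promoting complex and cohesin lists, with 35.3% and 30% lower after siATM and 0% and 10% higher. Over all tested genes these shares were 13.0% lower and 12.5% higher. Of 17 genes of the anaphase-promoting complex and mitotic exit, 6 were lower and 0 higher, with a median of −0.10. The separase gene ESPL1 fell 1.74-fold (−0.80, SE 0.06, adjusted p = 0.000292), followed by the inhibitor gene FBXO5 (−0.43) and the ubiquitin-conjugating enzyme gene UBE2S (−0.33). Of 10 cohesin genes, 3 were lower, RAD21 (−0.51), ESCO2 (−0.47) and SMC1A (−0.35), and 1, STAG2, was higher (0.30), with a median of 0.06. Of 21 tested DNA replication genes, 19 were lower and 0 higher after siATM, with a median of −0.48, beside −0.53 for the 64 members outside the NEK kinases and the kinesins of transport and other functions. After sip53, 2 of the 21 were lower and 4 higher, beside 5.11% and 5.47% of all tested genes.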

How the data were processed

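The deposited table holds 1 log2 value per probe set and array (Affymetrix Human Gene 2.0 ST) for 6 samples. Its scale follows from the range of the values, 1.33 to 14.2. The sources used here do not give the authors' background correction and normalization. Scanner files were not used, so there was no detection call or batch to test, and precision is limited by the number of arrays. Probe sets (16098 of 53617) were named through the platform annotation, and the probe set with the highest mean stood for a gene. Members named in the rule but not in that annotation are not analysed here.

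Group means were fitted over 10640 genes and all 6 arrays with limma 3.58.1 in R 4.3.3 (3 residual and 7.29 total degrees of freedom after eBayes). P-values are two-sided, adjusted by Benjamini-Hochberg over all tested genes of a contrast. A log2 difference is given with its moderated standard error (SE). The procedure was tested on simulated data. Members, role lists and tests were chosen with earlier results of these data known.

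Named with values were up to 4 tested members of each role list with the largest siATM difference, all members called after sip53 or higher in any contrast, the 3 brightest not called after siATM, and 2 on each side of the brightness limit, and up to 3 called genes of each other list. Further members of a complex, HJURP, INCENP, ITGB3BP, STAG2, RBL1, RBL2 and the MuvB and B-MYB genes were named after their values were seen. Other members of the role lists were also given with values outside this naming rule. Among them are KIF23, KIF15, KIF20A, KIF18A, KIF3C, KIF5A, KIF5C, KIF6, CDC25A, CDK1, CCNB1, MAD2L1, CENPC, CENPV and NEK4. Promoters are from RefSeq (GRCh38.p14), matched by symbol. Alternatives were other filters, scalings, probe set summaries, moderation, a replicate block and leaving out each array.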

Additional observations from a re-analysis of the deposited data

How the results depend on the processing

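After siATM, between 58 and 61 members were lower under the alternatives to filter, scaling, probe set summary and moderation, and between 53 and 60 with 1 array left out, with 54 of 62 called members kept in all 6 such fits. The number higher was 6 with variance trend and robust moderation and 1 to 4 with 1 array left out, the member median −0.46 with the filter at the 70th percentile and −0.44 to −0.40 with 1 array left out, and the number of all genes called 1437 to 2226, lowest without siNC replicate 1.

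The sip53 counts moved most. Without a filter 481 genes were called, with 3 members lower and 0 higher. With the filter at the 70th percentile 12 members were lower and 5 higher, as with trend and robust moderation, where 1742 genes were called. With the mean of all probe sets 0 members were higher, with only the 4 arrays of both groups 3, and with centred arrays the median was −0.045. KIF27, the 1 higher member of the main fit, was not tested with the mean of all probe sets. With 1 array left out, 272 to 1242 genes were called, 1 to 10 members were lower and 0 to 3 higher, and the cause was not tested beyond the smaller number of arrays.

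For siATM against sip53, the median was −0.35 without a filter, −0.42 with the filter at the 70th percentile and −0.36 with centred arrays, where 8 members were higher. With only the 4 arrays of both groups 3 were higher. With 1 array left out, 1842 to 2852 genes were called, 48 to 56 members were lower, 2 to 5 higher, and the median was −0.41 to −0.35. No named member reversed its direction with a call under any alternative.

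With replicate number as a block (the replicate block), 59 members were lower and 3 higher for siATM, 8 and 1 for sip53, and 56 and 3 for siATM against sip53, with 2696, 1001 and 3218 genes called. The labels do not say whether samples with the same replicate number were handled together. Deviations of replicate 1 correlated across genes at 0.0363 (siATM and siNC), 0.0277 (sip53 and siNC) and 0.117 (siATM and sip53).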
